A study of Bos taurus with 12 samples.

Results

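Among 9155 genes that the array annotation names by a single symbol, 67 genes of the microtubule system were followed through oocyte maturation in cattle. They are the genes on the array whose symbols belong to the kinesins, the cytoplasmic dyneins and their light chains, dynactin, the tubulins, the gamma-tubulin complex proteins, the tubulin folding cofactors, the stathmins, the end-binding MAPRE proteins, the TACC and CKAP proteins, and the dynein regulators NDE1, NDEL1 and PAFAH1B1. The rule used names and not measured values, although the members were chosen with earlier results of these data known. Each gene was represented by its probe set with the highest mean over 12 arrays. Of the 67 genes, 56 passed the filter on low signal (a mean above 5.57 log2 units) and were tested, and 11 did not: TUBB1, TUBB4A, STMN2, STMN3, STMN4, MAPRE3, TACC2, KIF5C, KIF21A, KIF27 and DYNC2I1. In all, 92 probe sets carried these genes, and 19 genes had more than 1.

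The oocytes came from Japanese Black cattle, either adult cows or prepubertal heifers aged 9 to 12 months, and were taken from follicles of 2 to 8 mm. Each age was sampled at the germinal vesicle (GV) stage, before maturation, and at metaphase II (MII), after 20 to 22 h of culture, with 3 arrays in each of the 4 groups. Every array held amplified RNA from 50 pooled oocytes stripped of cumulus cells, so the donors behind a pool cannot be separated, and the MII oocytes were those with a polar body. Apart from the culture, which only the MII oocytes had, no treatment or genetic change was applied to any group. Stage and culture therefore cannot be told apart. The pools of a group are called biological replicates by the labels, and the p-values measure the spread between these pools.

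An oocyte that resumes meiosis breaks down its nuclear envelope and builds a spindle without centrosomes. Alpha- and beta-tubulin dimers form the microtubules, gamma-tubulin complexes nucleate them, kinesins slide, depolymerise or walk along them, mostly towards plus ends, and cytoplasmic dynein with its cofactor dynactin walks towards minus ends and gathers the spindle poles. A fully grown oocyte transcribes little, so its messenger RNA is largely a store laid down during growth, and part of this store is removed during maturation.

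On 3 arrays the median of 9 oocyte genes stood less than 2 log2 units above the array median. These are called arrays without an oocyte profile, and counts over the genes are given for 12 arrays and for the other 9. The difference of a single gene is from the 9 arrays unless 12 are named. Relative to the median signal of its array, the median of 9 oocyte genes stood at 6.06 to 8.70 (log2) on 9 arrays, but at 0.76 in adult GV pool 1, at 0.03 in prepubertal MII pool 1 and at -0.36 in prepubertal GV pool 1. BMP15, an oocyte growth factor, read 14.21 to 15.10 on the 9 arrays and 6.47, 6.55 and 7.08 on the other 3. GDF9 read 12.09 to 14.35 on the 9 arrays, 9.29 in adult GV pool 1, and 7.47 and 6.27 in prepubertal GV and MII pool 1. ZP2 read 13.9 to 15.82, and then 10.05, 4.99 and 7.98. In adult GV pool 1 both lay above the array median, so oocyte signal there was reduced rather than absent. BMP15, GDF9 and ZP2 belong to the list that picked the arrays. PTX3, a cumulus matrix protein, read 1.92 to 8.74 on the 9 arrays, 14.66 in prepubertal GV pool 1 and 14.53 in prepubertal MII pool 1. The summed signal of 22 cumulus and granulosa markers was 13.06 to 14.73 (log2) on the 9 arrays and 17.52, 18.23 and 13.28 in prepubertal GV pool 1, prepubertal MII pool 1 and adult GV pool 1. The 15 theca and stroma markers summed to 9.11 to 11.30 on the 9 arrays and to 13.05 to 15.45 on the other 3, and 11 blood and endothelial markers to 8.45 to 10.54 and 9.05 to 11.62. These sums are not relative to the array median, which was 8.30 in adult GV pool 1 and 5.64 to 7.52 on the 9 arrays. Relative to it, the median theca and stroma marker stood at 0.41 in adult GV pool 1. It stood at 1.28 and 2.76 in prepubertal GV and MII pool 1, and at most at -0.10 on the 9 arrays. Pools of denuded oocytes can differ in how many other cells they hold and in the RNA of each oocyte, and signals alone cannot tell fewer cells from less RNA per cell.

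The 67 genes differed widely in how steadily they were read. On the 9 arrays, the 9 genes whose mean exceeded 12 log2 units (TUBB2B, TUBA1A, STMN1, TACC3, KIF20A, KIF3C, KIF5B, DYNLL1 and DYNC1I2) had a median SD of 0.61 log2 units over the arrays. The other 47 tested genes had a median SD of 1.29, and the 11 untested genes 2.08. A difference of 2 log2 units is therefore larger than the usual spread for a gene of the first kind and not for one of the last. Signals of different probe sets cannot be ranked as amounts of RNA, because probes differ in affinity.

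**Figure D1:**
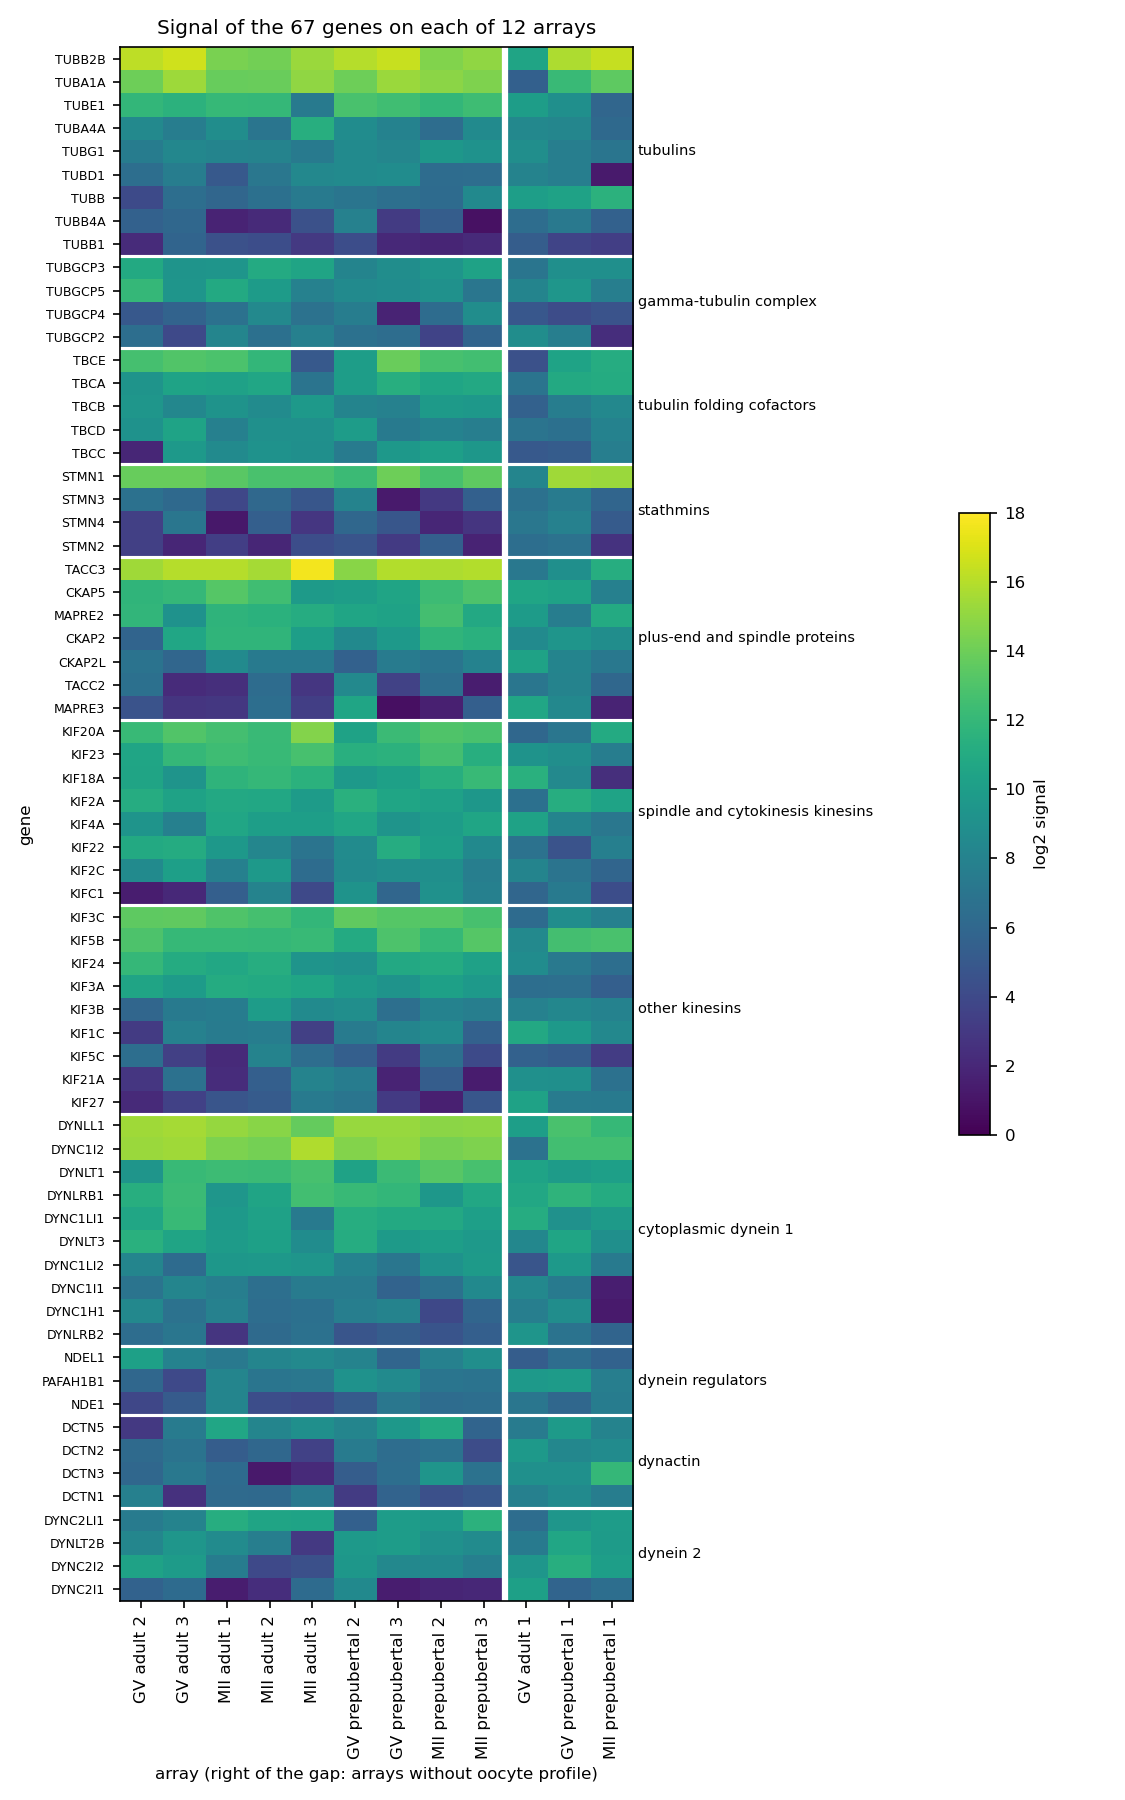
Log2 signal of the 67 genes (rows, grouped by role) on each of the 12 arrays (columns), from dark (0) to bright (18). The 9 arrays with an oocyte profile stand left of the gap, and TUBB2B, DYNLL1, DYNC1I2 and TACC3 are bright on all 9 of them; TACC3 reads 7.20, 8.96 and 11.18 on the 3 arrays to the right.

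TUBB2B, a beta-tubulin, fell between GV and MII when the oocyte-profile pools of both ages were averaged, the 1 member to pass with all 9 arrays on the deposited scale. In GV pools with an oocyte profile it read 16.20 and 16.71 in adults (pools 2 and 3) and 16.03 and 16.50 in prepubertal donors (pools 2 and 3). In MII pools it read 14.40, 14.16 and 15.30 in adults and 14.57 and 15.04 in prepubertal donors. All 4 GV values lay above all 5 MII values, at both ages. The mean of the MII minus GV differences of the 2 ages was -1.65 log2 units (SE 0.26; GV n = 4, MII n = 5), and TUBB2B passed the threshold in this comparison, which was added after the data had been seen (limma, adjusted p = 0.0180 over 14409 probe sets). It was the 1 member of 56 that passed there, where 104 probe sets, 0.722% of those tested, did.

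Within each age the same difference did not pass when the deposited values of all 4 groups were fitted on the 9 arrays with the filter and no block. TUBB2B was lower at MII by 1.84 log2 units in adults (difference -1.84, SE 0.36; limma, adjusted p = 0.0555) and by 1.46 in prepubertal donors (difference -1.46, SE 0.39; adjusted p = 0.552). In adults it did pass after quantile normalisation (adjusted p = 0.00604), with no filter (0.0378), with a pseudocount of 32 (0.0254), with the replicate block (0.0348) and without adult MII pool 3 (0.00852), and in prepubertal donors with the compared groups only (0.0286). Over the alternatives run on the 9 arrays, the adult difference stayed below 0, with adjusted p from 0.00604 to 0.529. The maturation changes of the 2 ages differed by 0.38 (SE 0.53; adjusted p = 0.999), less than the error. TUBB2B read 10.49 in adult GV pool 1, 15.78 in prepubertal GV pool 1 and 16.42 in prepubertal MII pool 1, and with these 3 arrays in the fit the mean of both ages was -0.30 (SE 1.20; adjusted p = 0.933), so the call rests on leaving them out. In adults alone, the TUBB2B stages overlapped on 12 arrays, and the mean lay slightly higher at MII than at GV. Oocyte markers were lower on the 3 arrays without an oocyte profile and cumulus markers higher on the prepubertal pair. The part of these markers in the TUBB2B values was not tested. The call was also lost when each array was centred on its median (difference -1.20, adjusted p = 0.306), when the variances were moderated without an intensity trend (adjusted p = 0.344), and without adult GV pool 3 (0.0577), prepubertal GV pool 2 (0.0766) or 3 (0.0827), or prepubertal MII pool 2 (0.108) or 3 (0.0962). Over the left-out arrays the difference itself stayed between -1.82 and -1.52. Quantile normalisation kept it (difference -1.48, adjusted p = 0.000917). A second TUBB2B probe set, with a mean of 8.25, gave an adult difference of -1.94 (SE 1.48) and a prepubertal one of 0.27 (SE 1.62), so it did not repeat the difference in the heifers. Beta-tubulin genes are close in sequence, and which of them the probes detect was not analysed here.

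**Figure D2:**
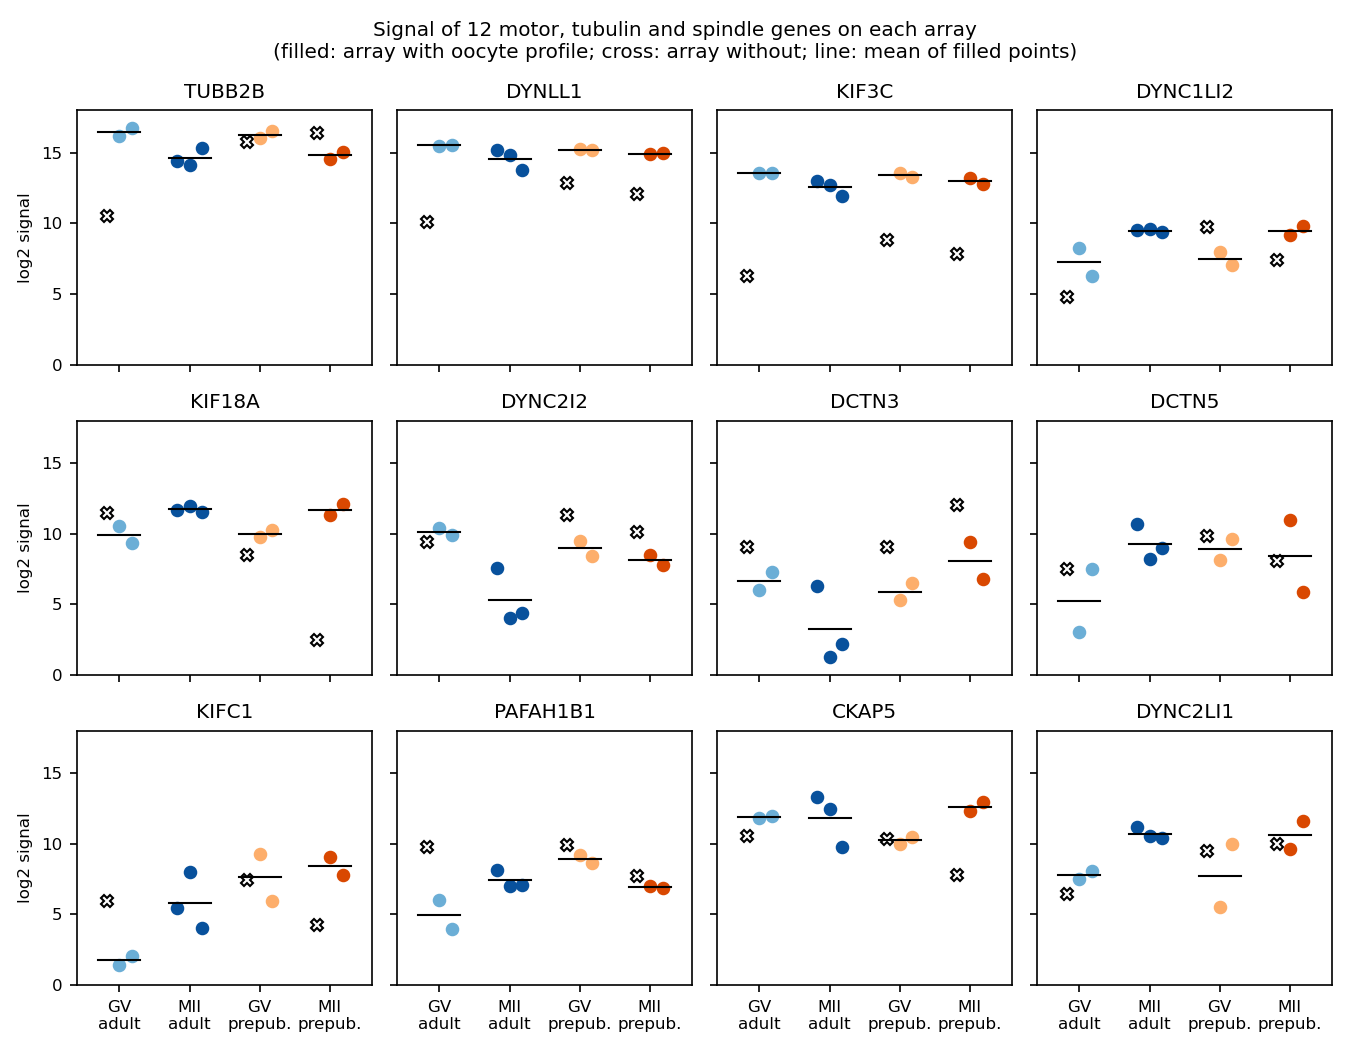
Log2 signal of 12 genes on each array by group (vertical axes from 0 to 18). Filled points are arrays with an oocyte profile, crosses are the 3 arrays without one, and lines mark the mean of the filled points; the filled TUBB2B points are 16.03 to 16.71 at GV and 14.16 to 15.30 at MII.

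The other tubulins gave no comparable separation. TUBA1A, an alpha-tubulin, read 14.05, 15.37, 14.05 and 15.27 in the 4 GV pools with an oocyte profile and 13.79, 13.91, 14.98, 14.85 and 14.55 in the 5 MII pools, and the stages overlapped. TUBG1, the gamma-tubulin that caps and nucleates microtubules, ranged from 7.38 to 9.55 over the 9 arrays, and TUBE1, epsilon-tubulin, from 7.42 to 12.80. TUBD1, delta-tubulin, read 8.59 and 8.78 in prepubertal GV pools 2 and 3 and 6.35 and 6.45 in prepubertal MII pools 2 and 3. In adults its values overlapped, at 6.48 and 7.66 (GV pools 2 and 3) and 5.04, 7.16 and 8.38 (MII), and the prepubertal difference of -2.28 (SE 1.47) did not pass (limma, adjusted p = 0.796). On 12 arrays that difference was -3.66 (SE 1.54), with 7.70 in prepubertal GV pool 1 and 1.29 in prepubertal MII pool 1 (adjusted p = 0.999). Of the 7 tested tubulins, 2 lay higher at MII in adults and 3 in prepubertal donors on the 9 arrays, where 51.1% and 46.6% of all probe sets lay higher. On 12 arrays 3 of 7 did at each age, beside 48.2% and 41.2%.

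Across all 56 tested members, no gene passed within an age in either fit. On the 9 arrays in adults, 17 probe sets (0.118%) passed and no member, and 10 members (17.9%) had an unadjusted p under 0.05, beside 11.4% of all probe sets. In prepubertal donors no member and no probe set passed (0%), and 2 members (3.57%) had an unadjusted p under 0.05, beside 6.99%. The median change of the 67 genes was -0.12 log2 units in adults and 0.01 in prepubertal donors, beside -0.14 and -0.32 for all 9155 genes. On 12 arrays none passed at either age (limma; 0% of all probe sets), with unadjusted p under 0.05 in 6 members (10.7%, background 7.93%) in adults and 2 (3.57%, background 3.41%) in prepubertal donors, and with medians of 0.17 and -0.30 beside -0.39 and -0.46 for all genes. The scale of the arrays matters here: the median change of all genes in prepubertal donors on 9 arrays was -0.32 as deposited, -0.01 after quantile normalisation and 0.48 after median centring, and that of the 67 genes was 0.01, 0.03 and 0.81.

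Counts of genes whose GV and MII pools did not overlap are read against the same count over all probe sets. In adults on 9 arrays, 14 members (25%) were higher at MII and 10 (17.9%) lower, beside 15% and 13.1% of all probe sets; in prepubertal donors 11 (19.6%) were higher and 13 (23.2%) lower, beside 19.4% and 20.8%. On 12 arrays 8 (14.3%) were higher and 3 (5.36%) lower in adults, beside 8.11% and 7.19%, and 3 (5.36%) and 6 (10.7%) in prepubertal donors, beside 3.66% and 6.05%.

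Averaged over both ages on the 9 arrays, 8 members (14.3%) had an unadjusted p under 0.05, beside 14.1% of all probe sets. Every GV pool lay below every MII pool for 2 members, DYNC1LI2 and KIF18A (3.57%, background 3.82%), and above every MII pool for 3, TUBB2B, DYNLL1 and KIF3C (5.36%, background 3.53%). On 12 arrays no member separated the stages in either direction, where 0.451% of probe sets were higher and 0.5% lower at MII, no probe set passed (0%), and 6 members (10.7%) had an unadjusted p under 0.05, as did 10.7% of all probe sets. The differences of KIF3C and DYNLL1, below 0 on the 9 arrays, were 0.40 (SE 1.29) and 0.21 (SE 1.13) on 12. Those of KIF18A, DYNC1LI2 and CKAP2 were 0.22 (SE 1.24), 1.80 (SE 0.88) and 2.17 (SE 0.89) on 12 arrays, and those of DYNLT1 and DYNC2LI1 were 1.51 (SE 0.84) and 2.73 (SE 0.87).

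**Figure D3:**
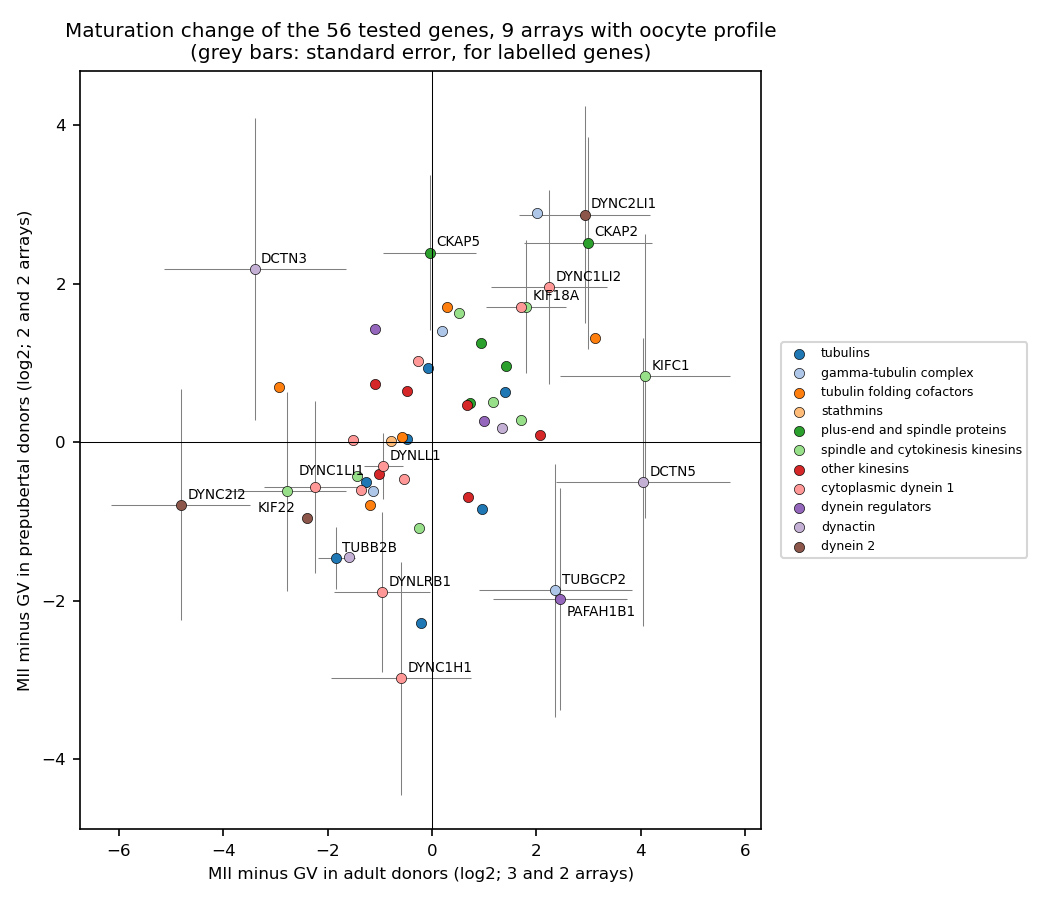
MII minus GV difference (log2) of the 56 tested genes in adult donors (horizontal) and prepubertal donors (vertical) over the 9 arrays with an oocyte profile, coloured by role, with grey standard errors for labelled genes. TUBB2B lies at -1.84 and -1.46 with short error bars, and DYNC2LI1 (2.92 and 2.87) and CKAP2 (2.99 and 2.52) lie far out with long ones.

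Kinesins of the spindle and of cell division formed a group of 8, all tested. KIF18A, which walks to plus ends and dampens chromosome movement at the spindle equator, read 10.50 and 9.35 in adult GV pools 2 and 3 and 9.73 and 10.25 in prepubertal GV pools 2 and 3. At MII it read 11.70, 11.96 and 11.52 in adults and 11.30 and 12.10 in prepubertal donors. All 5 MII values lay above all 4 GV values, but the difference over both ages of 1.76 (SE 0.57) did not pass (limma, adjusted p = 0.178). The gene read 11.43 in adult GV pool 1, 8.45 in prepubertal GV pool 1 and 2.44 in prepubertal MII pool 1.

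KIFC1, a minus-end motor that bundles spindle microtubules, was low in adult GV pools 2 and 3, at 1.43 and 2.07, and read 5.45, 8.03 and 4.00 in adult MII pools. The heifers' pools 2 and 3 read 9.25 and 5.97 at the GV stage and 9.09 and 7.81 at MII. Adult GV pools with an oocyte profile thus lay below every other pool, although adult GV pool 1 read 5.95, prepubertal GV pool 1 7.41 and prepubertal MII pool 1 4.24. Its difference was 4.08 (SE 1.64; limma, adjusted p = 0.348) for maturation in adults and 5.86 (SE 1.79; adjusted p = 0.997) for prepubertal minus adult at GV, and neither passed. On 12 arrays they were 2.68 (SE 1.74) and 4.40 (SE 1.74). Both differences use the same adult GV pools.

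KIF22, which pushes chromosome arms away from the poles, read 10.95 and 11.09 in adult GV pools 2 and 3 and 9.57, 8.24 and 6.89 at MII in adults. In prepubertal donors the stages overlapped, at 8.70 and 11.16 (GV pools 2 and 3) and 10.09 and 8.53 (MII pools 2 and 3). The adult difference of -2.79 (SE 1.14) did not pass (limma, adjusted p = 0.362). On 12 arrays, adult GV pool 1 read 6.82, prepubertal GV pool 1 4.60 and prepubertal MII pool 1 7.79, and the adult stages overlapped with a difference of -1.38 (SE 1.56).

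KIF20A and KIF23, both needed for the cleavage furrow at cytokinesis, ranged over the 9 arrays from 10.34 to 14.69 and from 10.57 to 12.77. KIF20A read 12.14 and 13.12 in adult GV pools 2 and 3 and 12.59, 12.17 and 14.69 in adult MII pools, and in prepubertal pools 2 and 3 it read 10.34 and 12.24 at the GV stage and 13.03 and 12.81 at MII. On the 3 arrays without an oocyte profile it read 6.05 in adult GV pool 1, 7.05 in prepubertal GV pool 1 and 10.98 in prepubertal MII pool 1. Of the 8 kinesins, 5 lay higher at MII than at GV and 3 lower, at each age (9 arrays). Of all probe sets, 51.1% lay higher in adults and 46.6% in prepubertal donors. On 12 arrays the adult count was 6 and 2 (48.2% of all probe sets higher). The prepubertal count turned over to 2 higher and 6 lower (41.2% higher), with a median of -0.31 log2 units in place of 0.40. The prepubertal median of all genes was -0.46 in place of -0.32. On the 9 arrays quantile normalisation gave a prepubertal count of 4 and 4, and median centring 7 and 1.

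The remaining kinesins formed the other group, with 6 of 9 tested. KIF3C, a motor chain of the kinesin-2 family, read 13.54 and 13.59 in adult GV pools 2 and 3 and 13.57 and 13.24 in prepubertal GV pools 2 and 3, against 13.02, 12.68 and 11.91 in adult MII pools and 13.24 and 12.77 in prepubertal MII pools. The 4 GV values lay above the 5 MII values, although prepubertal GV pool 3 and prepubertal MII pool 2 were equal to 2 decimals, and the difference over both ages of -0.71 (SE 0.38) did not pass (limma, adjusted p = 0.418). KIF24, a centriolar kinesin, read 11.98 and 11.10 in adult GV pools 2 and 3 and 9.09 and 10.83 in prepubertal GV pools 2 and 3. Its GV values at the 2 ages did not overlap, and the difference of -1.58 (SE 0.99) did not pass (adjusted p = 0.9997). At MII it read 10.82, 11.21 and 9.33 in adults and 11.09 and 10.31 in prepubertal donors (pools 2 and 3), and 8.77, 7.30 and 6.51 in adult GV pool 1, prepubertal GV pool 1 and prepubertal MII pool 1.

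Cytoplasmic dynein 1, the main minus-end motor, was represented by 10 genes, all tested. DYNC1LI2, a light intermediate chain that couples the motor to cargo, read 8.22 and 6.28 in adult GV pools 2 and 3 and 7.95 and 7.06 in prepubertal GV pools 2 and 3. At MII it read 9.50, 9.62 and 9.35 in adults and 9.14 and 9.77 in prepubertal donors, above every GV pool. The difference over both ages was 2.10 (SE 0.83; limma, adjusted p = 0.264), which did not pass. Adult GV pool 1 read 4.75, prepubertal GV pool 1 9.74 and prepubertal MII pool 1 7.40, so the prepubertal stages overlapped on 12 arrays. The partner chain DYNC1LI1 ran the other way in adults, from 10.68 and 12.11 at GV (pools 2 and 3) to 9.72, 10.33 and 7.44 at MII (difference -2.23, SE 0.99; adjusted p = 0.403), and this did not pass either. In prepubertal pools 2 and 3 it read 11.20 and 10.93 at the GV stage and 10.84 and 10.16 at MII.

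DYNLL1, a light chain shared by dynein and other complexes, was read very evenly at GV, at 15.46 and 15.57 in adults and 15.25 and 15.20 in prepubertal donors (pools 2 and 3). The MII pools read 15.16, 14.82 and 13.77 in adults and 14.88 and 14.97 in prepubertal donors, all below every GV pool. The difference over both ages was small, at -0.62 (SE 0.28; limma, adjusted p = 0.335), and did not pass. Its second probe set lay lower at MII at both ages too, by 0.47 in adults (-0.47, SE 0.49) and 0.51 in prepubertal donors (-0.51, SE 0.54). DYNLT1, a Tctex-type light chain, read 9.35, 12.11, 10.38 and 12.27 in the 4 GV pools and 12.32, 12.24, 12.76, 13.30 and 12.76 in the 5 MII pools. The pools overlapped only through prepubertal GV pool 3, at 12.27 against 12.24 in adult MII pool 2, and the difference of 1.71 (SE 0.61) did not pass (adjusted p = 0.217).

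DYNC1H1, the motor heavy chain, gave a low signal and its probe sets disagreed. The probe set used read 7.71 and 8.03 in prepubertal GV pools 2 and 3 and 3.90 and 5.88 in prepubertal MII pools 2 and 3. In adults it read 8.39 and 6.77 (GV pools 2 and 3) and 7.93, 6.40 and 6.64 (MII), which overlapped. The prepubertal difference was -2.98 (SE 1.47; limma, adjusted p = 0.728) on 9 arrays and -4.50 (SE 1.43; adjusted p = 0.999) on 12, where prepubertal GV pool 1 read 8.82 and prepubertal MII pool 1 1.28. A second kept probe set gave 2.72 (SE 2.04) for the same comparison on 9 arrays, and the mean of the gene's probe sets gave 0.62, so no direction can be given. DYNLRB1, a roadblock light chain, read 12.12 and 11.95 in prepubertal GV pools 2 and 3 and 9.51 and 10.79 at MII (difference -1.89, SE 1.004, limma adjusted p = 0.7465). In adults its stages overlapped, at 11.29 and 12.28 (GV pools 2 and 3) and 9.43, 10.52 and 12.55 (MII). It read 10.82, 11.68 and 11.07 in adult GV, prepubertal GV and prepubertal MII pool 1. DYNLRB2, the related roadblock chain, read 6.40 and 7.07 in adult GV pools 2 and 3 and 4.73 and 5.33 in prepubertal GV pools 2 and 3, and 2.76, 6.20 and 6.71 (adult) and 4.68 and 5.45 (prepubertal) at MII. With 9.40 and 6.84 in adult and prepubertal GV pool 1, its age difference at GV was -1.99 (SE 1.51; adjusted p = 1) on 12 arrays.

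Dynactin, the cofactor that makes dynein processive, was represented by DCTN1, DCTN2, DCTN3 and DCTN5. DCTN3, the p24 subunit of the shoulder, read 6.02 and 7.24 in adult GV pools 2 and 3 and 6.29, 1.23 and 2.18 in adult MII pools. In prepubertal donors it read 5.29 and 6.47 at the GV stage and 9.37 and 6.76 at MII (pools 2 and 3). Prepubertal MII pools thus lay above all adult MII pools, of which 2 were near the bottom of the scale and 1 was not. On the 3 arrays without an oocyte profile it read 9.02 in adult GV pool 1, 9.05 in prepubertal GV pool 1 and 11.99 in prepubertal MII pool 1, each above the other values of its group. The prepubertal minus adult difference at MII was 6.14 (SE 1.71) on 12 arrays and 4.83 (SE 1.74) on 9 arrays, and the maturation changes of the ages differed by 6.63 (SE 2.42) and 5.58 (SE 2.58). None of these passed (limma, adjusted p = 0.9997 and 0.9996 for age at MII, 0.9998 and 0.9992 for the difference of the changes).

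DCTN5, a pointed-end subunit, read 3.0 and 7.5 in adult GV pools 2 and 3 and 10.68, 8.22 and 8.97 in adult MII pools. In prepubertal donors it read 8.16 and 9.62 at the GV stage and 10.94 and 5.83 at MII (pools 2 and 3), and the stages overlapped. Adult MII pools lay above adult GV pools also with adult GV pool 1, at 7.45, and the difference was 3.31 (SE 1.49; limma, adjusted p = 0.606) on 12 arrays and 4.04 (SE 1.66; adjusted p = 0.363) on 9. At GV, prepubertal minus adult was 3.22 (SE 1.49; adjusted p = 1) on 12 arrays and 3.64 (SE 1.82; adjusted p = 0.9997) on 9, with the same adult pools. Prepubertal GV pool 1 read 9.83 and prepubertal MII pool 1 8.06.

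PAFAH1B1 (LIS1), which holds dynein in a strongly bound state and is loaded with NDE1 or NDEL1, differed in direction between the ages on the 9 arrays. It read 6.0 and 3.96 in adult GV pools 2 and 3 and 8.16, 7.03 and 7.11 in adult MII pools. Its prepubertal values (pools 2 and 3) were 9.17 and 8.63 in GV oocytes, then 7.01 and 6.84 in MII oocytes. Every MII pool lay above the GV pools in adults and below them in prepubertal donors, with a difference of 2.45 (SE 1.28) in the former and -1.98 (SE 1.40) in the latter, and with MII means of 7.43 and 6.92. The difference between the changes was -4.43 (SE 1.90) and did not pass (limma, adjusted p = 0.999). Adult GV pool 1 read 9.77, prepubertal GV pool 1 9.88 and prepubertal MII pool 1 7.73, and on 12 arrays the adult stages overlapped (difference 0.86, SE 1.40) and the difference between the changes was -2.89 (SE 1.98).

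Cytoplasmic dynein 2, the retrograde motor of the cilium, had 3 tested genes of 4. DYNC2I2 (WDR34), an intermediate chain, read 10.39 and 9.87 in adult GV pools 2 and 3 and 7.57, 3.99 and 4.40 in adult MII pools. Prepubertal pools 2 and 3 read 9.49 and 8.39 at the GV stage and 8.51 and 7.79 at MII. The adult stages stood apart, also with 9.43 in adult GV pool 1, and the prepubertal stages overlapped. The adult difference was -4.58 (SE 1.27; limma, adjusted p = 0.564) on 12 arrays and -4.81 (SE 1.33; adjusted p = 0.168) on 9, and prepubertal minus adult at MII was 3.48 (SE 1.27; adjusted p = 0.9997) and 2.83 (SE 1.33; adjusted p = 0.9996). None of these passed, and all use the same adult MII pools. Prepubertal GV pool 1 read 11.32 and prepubertal MII pool 1 10.11.

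DYNC2LI1, the light intermediate chain of dynein 2, ran opposite to DYNC2I2 in adults. It read 7.52 and 8.08 in adult GV pools 2 and 3 and 11.19, 10.54 and 10.43 in adult MII pools, while prepubertal pools 2 and 3 read 5.53 and 9.95 at the GV stage and 9.64 and 11.58 at MII. Prepubertal GV pool 3 was the 1 GV pool of the 4 that overlapped with MII. The difference over both ages was 2.90 (SE 0.93; limma, adjusted p = 0.173) and did not pass. Adult GV pool 1 read 6.42, prepubertal GV pool 1 9.47 and prepubertal MII pool 1 9.97. DYNLT2B, a light chain of the same motor, ranged over the 9 arrays from 3.0 (adult MII pool 3) to 9.92 (prepubertal GV pool 3).

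Proteins of the plus end and the spindle poles included CKAP5 (ch-TOG), a microtubule polymerase, and its partner TACC3. CKAP5 read 10.02 and 10.48 in prepubertal GV pools 2 and 3 and 12.33 and 12.95 in prepubertal MII pools 2 and 3. Adult pools overlapped, at 11.81 and 11.96 (GV pools 2 and 3) and 13.28, 12.45 and 9.78 (MII). Its prepubertal difference of 2.39 (SE 0.97) did not pass (limma, adjusted p = 0.682), and on 12 arrays, with 10.36 in prepubertal GV pool 1 and 7.82 in prepubertal MII pool 1, it was 0.75 (SE 1.33). TACC3 read 14.79 to 16.00 on 8 of the 9 arrays and 17.71 in adult MII pool 3.

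CKAP2, a spindle-associated protein, read 5.81 and 10.65 in adult GV pools 2 and 3 and 8.55 and 9.66 in prepubertal GV pools 2 and 3. At MII it read 11.78, 11.75 and 10.12 in adults and 11.80 and 11.44 in prepubertal donors. Only adult MII pool 3 fell within the GV range, and the difference over both ages of 2.75 (SE 0.91) did not pass (limma, adjusted p = 0.184). Without adult GV pool 3 the difference was 3.96, which rests on adult GV pool 2 as the lone adult GV array. CKAP2 had 3 probe sets, and only the probe set used is given here. MAPRE2, an end-binding protein, read 10.56 and 10.37 in prepubertal GV pools 2 and 3 and 12.59 and 10.83 at MII, with 7.60 and 11.01 in prepubertal pools 1 at GV and MII. Adult pools read 9.91, 11.86 and 9.17 at the GV stage and 11.67, 11.51 and 11.16 at MII, which overlapped. Its prepubertal difference was 1.97 (SE 1.14; adjusted p = 0.999) on 12 arrays and 1.25 (SE 0.98; adjusted p = 0.838) on 9. All 5 tested genes of this group lay higher at MII in prepubertal donors and 4 of 5 in adults (9 arrays; 46.6% and 51.1% of all probe sets). On 12 arrays all 5 did at each age (41.2% and 48.2%), and no member of it passed within an age.

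Among the nucleation and folding factors, TUBGCP2, a subunit of the gamma-tubulin ring complex, read 6.49 and 3.95 in adult GV pools 2 and 3 and 8.20, 6.68 and 7.87 in adult MII pools. Prepubertal pools 2 and 3 read 6.69 and 6.45 at the GV stage and 3.62 and 5.79 at MII. The stages stood apart in opposite directions at the 2 ages, with differences of 2.37 (SE 1.46) and -1.87 (SE 1.60), and the difference between them of -4.23 (SE 2.16) did not pass (limma, adjusted p = 0.999). Adult GV pool 1 read 8.85, prepubertal GV pool 1 7.67 and prepubertal MII pool 1 2.32, and prepubertal minus adult at MII was -3.68 (SE 1.53; adjusted p = 0.9997) on 12 arrays. TUBGCP2 had 3 probe sets, and only the probe set used is given here. TUBGCP5 read 12.01 and 9.37 in adult GV pools 2 and 3, 10.91, 9.86 and 7.92 in adult MII pools, 8.62 and 8.77 in prepubertal GV pools 2 and 3 and 9.10 and 7.08 in prepubertal MII pools 2 and 3. On the arrays without an oocyte profile it read 8.10, 9.44 and 7.66 (adult GV, prepubertal GV and prepubertal MII pool 1). The folding cofactors TBCA to TBCE, which build the tubulin dimer, gave 2 of 5 genes higher at MII in adults and 4 of 5 in prepubertal donors on the 9 arrays, and 3 and 4 of 5 on 12. Of all probe sets, 51.1% and 46.6% lay higher on the 9 arrays, and 48.2% and 41.2% on 12. TBCC read 1.90 in adult GV pool 2 and 7.47 to 10.17 on the other 8 arrays.

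Donor age gave no call in these genes. At GV, 2 of 56 members (3.57%) had an unadjusted p under 0.05 on 12 arrays, beside 2.51% of all probe sets, and 2 (3.57%) on 9, beside 4.64%. At MII the counts were 4 (7.14%, background 2.66%) and 1 (1.79%, background 2.56%). For the difference of the maturation changes they were 1 (1.79%, background 1.21%) and 2 (3.57%, background 3.06%). No member and no probe set passed in any of these comparisons in either fit (0%; limma, adjusted over 14409 probe sets). Pools of the ages did not overlap at GV for 3 members higher and 1 lower in prepubertal donors on 12 arrays (5.36% and 1.79%, background 3.8% and 1.88%), and for 9 and 10 on 9 arrays (16.1% and 17.9%, background 16.2% and 11%). At MII they did not for 2 and 3 on 12 arrays (3.57% and 5.36%, background 4.78% and 5.18%), and for 4 and 5 on 9 (7.14% and 8.93%, background 9.24% and 9.89%). The 4 members with an unadjusted p under 0.05 at MII on 12 arrays were DCTN3 and DYNC2I2, higher in prepubertal pools, and TUBGCP2 and DYNC1H1, lower, and on 9 arrays DCTN3 was left. Median differences of the 67 genes between the ages (prepubertal minus adult) were 0.23 at GV and -0.41 at MII on 12 arrays, and -0.06 and 0.15 on 9, beside 0.25, 0.02, 0.21 and 0.08 for all genes. The members' median at MII thus changed sign when prepubertal MII pool 1 was left out.

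The 3 arrays without an oocyte profile also bore on these genes. Both prepubertal pools 1 lay below the whole range of the 9 arrays for 9 of the 67 genes (13.4%, beside 8.49% of 9155 genes): DYNC1I2, DYNLL1, KIF18A, KIF23, KIF24, KIF3A, KIF3C, TACC3 and TUBA1A. They lay above it for 4 (5.97%, beside 13.2%): TUBB, STMN1, DCTN2 and KIF27. TUBB, a beta-tubulin made in most cell types, read 4.03 to 8.54 on the 9 arrays and 10.39 and 11.59 on these 2, with 10.09 in adult GV pool 1. STMN1, which sequesters tubulin, read 12.24 to 14.03 on the 9 arrays and 15.46 and 15.26 on these 2, but 8.18 in adult GV pool 1. KIF27, an untested gene, was above by little, at 7.47 and 7.44 against 7.41. Adult GV pool 1 lay below the range for 22 genes (32.8%, beside 18.5%) and above it for 13 (19.4%, beside 34.4%). All 3 arrays lay below the range for 8 genes (11.9%, beside 6.2%) and above it for 3, TUBB, DCTN2 and KIF27 (4.48%, beside 6.08%). TACC3, bright on all 9 arrays, read 7.20 there, 8.96 in prepubertal GV pool 1 and 11.18 in prepubertal MII pool 1. These are descriptions of single arrays with no test, with cumulus and granulosa markers higher on the prepubertal pair and theca and stroma markers higher on all 3; their part in these values was not tested.

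**Figure D4:**
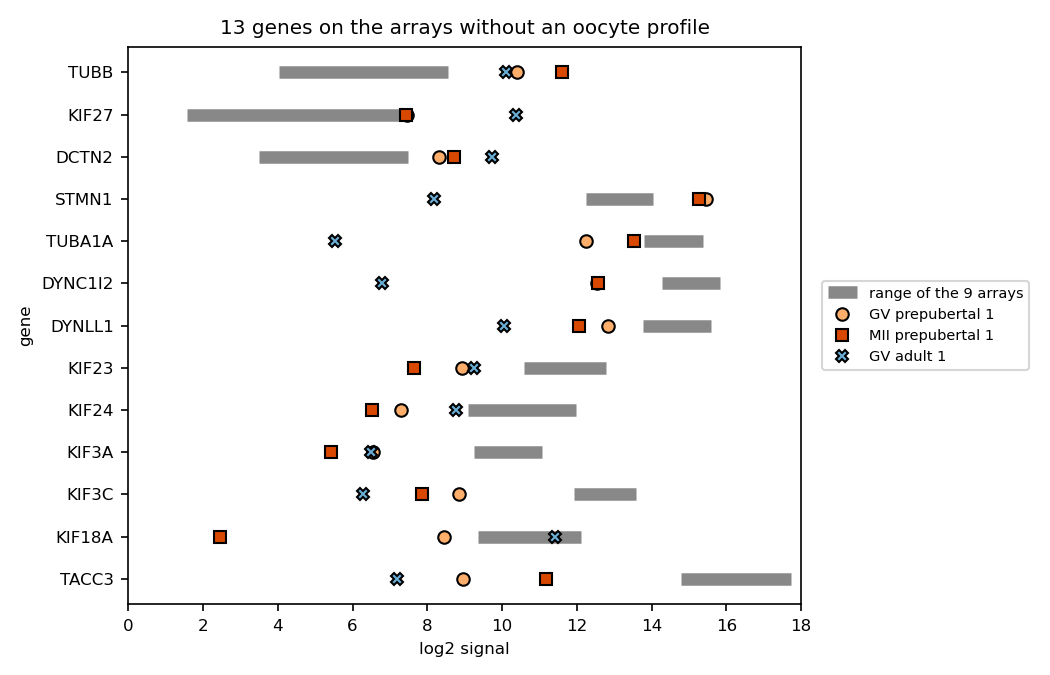
Log2 signal of the 13 genes for which both prepubertal pools 1 lie outside the range of the 9 arrays with an oocyte profile (grey bars), with adult GV pool 1 as a cross. TACC3, KIF3C and KIF3A lie below their bars on all 3 arrays and TUBB and DCTN2 above, while STMN1 is above on the prepubertal pair and below, at 8.18, in adult GV pool 1.

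Other genes of the spindle and of microtubule transport were counted in lists kept apart from the 67. Of 20 spindle assembly genes, 12 lay higher and 8 lower at MII, at each age, on the 9 arrays. Of 14 genes of the microtubule organising centre, 9 lay higher and 5 lower at each age. Of 19 dynein adaptors and microtubule-associated proteins, 8 lay higher in adults and 10 in prepubertal donors, and of 11 genes of tubulin modification and severing, 5 and 4. On 12 arrays the spindle assembly genes were 15 higher and 5 lower in adults and 12 and 8 in prepubertal donors, and those of the organising centre 8 and 6 at each age. The adaptors then had 9 higher in adults and 10 in prepubertal donors, and the modification and severing genes 6 and 3. Of all 9155 genes, 46.5% lay higher in adults and 41.9% in prepubertal donors on the 9 arrays, and 42.5% and 36.3% on 12. Of the 61 listed genes that were tested, none passed at either age in either fit (limma). On the 9 arrays an unadjusted p under 0.05 was found for 6 (9.84%, beside 11.4% of all probe sets) in adults and 3 (4.92%, beside 6.99%) in prepubertal donors, and on 12 arrays for 2 (3.28%, beside 7.93%) and 1 (1.64%, beside 3.41%). SVBP, the partner of the vasohibins that remove tyrosine from alpha-tubulin, had the smallest p in adults, at 12.36 ± 0.86 (SD, n = 2) at GV and 9.41 ± 0.76 (SD, n = 3) at MII (difference -2.96, SE 0.81; limma, adjusted p = 0.167). In prepubertal donors SVBP was 12.05 ± 0.10 (SD, n = 2) and 10.41 ± 0.59 (SD, n = 2), a difference of -1.65 (SE 0.89; adjusted p = 0.746). On 12 arrays the SVBP differences were -0.92 (SE 1.37) and -1.33 (SE 1.37). The other genes with the smallest p of their list in adults were MAP1B (2.73, SE 1.07), HAUS4 (2.93, SE 1.45) and BORA (1.39, SE 0.75). In prepubertal donors they were ZW10 (3.88, SE 1.59), HAUS2 (3.33, SE 1.41), CDCA8 (0.86, SE 0.38) and TTLL12 (-4.45, SE 2.11), with adjusted p from 0.682 to 0.713.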

How the data were processed

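RNA of 12 oocyte pools was amplified, labelled with biotin and hybridised to Affymetrix bovine arrays. The values are log2 signals as the authors deposited them; MAS5 is named in the submitters' processing notes, its version not given in the sources used here. Each array had a trimmed mean of 500 on the linear scale (2% trimmed at either end), and no array was rescaled. Of 24128 probe sets, 112 controls were left out, and 14409 with a mean above the 40th percentile (5.57) were kept. Of the non-control probe sets, 13292 have 1 symbol, 86 several and 10638 none in GEO's platform annotation; 99.8% of Entrez identifiers matched a RefSeq cattle table. The number of arrays limits the precision.

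A mean per group was estimated by limma (3.58.1, under R 4.3.3; lmFit, eBayes with an intensity trend) on 12 arrays (8 residual degrees of freedom) and on the 9 whose oocyte list median lay at least 2 log2 units above the array median (5). Adjustment followed Benjamini and Hochberg over all kept probe sets, threshold 0.05. Age at GV and age at MII test prepubertal minus adult pools within a stage, and the difference of the maturation changes tests whether maturation differed between the ages.

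The members, lists, both array sets and tests were chosen with earlier results of these data known; DCTN3 and DYNC2I2 were singled out for small p-values then. Named genes are these 2, members past the threshold, and per comparison and fit the up to 3 higher and 3 lower members of smallest unadjusted p; DYNLT1, KIF3C and others named for the average of both ages, a comparison added after seeing the data, or for their role, were chosen with values in view. Scripts were tested on simulated data. Replicate numbers are shared between groups: correlations of same-numbered pools were 0.609, 0.149 and 0.306 for maturation in prepubertal donors, all above 0.1, and not all above it elsewhere. Prepubertal pool 1 lacks an oocyte profile at both stages, so these correlations cannot show whether the pools are paired. Scaling, filter, pseudocount, variance model, probe set choice, block and left-out arrays were varied.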

Additional observations from a re-analysis of the deposited data

Results flagged for a closer look

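For 3 genes the groups stood apart in opposite directions on the 9 arrays with an oocyte profile, and in each case the difference between the effects was tested with limma and did not pass (adjusted p = 0.999). PAFAH1B1 lay higher at MII in adults and lower at MII in prepubertal donors, a difference of -4.43 log2 units; seen as age, the same 4 groups give prepubertal minus adult as higher at GV and lower at MII, again -4.43. TUBGCP2 lay higher at MII in adults and lower in prepubertal donors, a difference of -4.23. DYNC2I2 was lower in prepubertal than adult pools at GV and higher at MII, a difference of 4.02. With 2 or 3 arrays in a group, separation within a single comparison is common. For maturation, 15% of probe sets were higher and 13.1% lower at MII without overlap in adults, and 19.4% and 20.8% in prepubertal donors. Between the ages, 16.2% were higher and 11% lower in prepubertal pools at GV, and 9.24% and 9.89% at MII. The share of all probe sets that separated in opposite directions was not counted, so these genes have no background of their own kind.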

How the results depend on the processing

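Of 69 named results, 62 kept their direction under every alternative run within their own set of arrays. Those that reversed were, at GV between the ages on 12 arrays, DYNC2I2 after quantile normalisation (0.51) and with single arrays left out (-0.96 to 0.51), DCTN3 (-1.55 to 0.33) and KIF22 (-2.97 to 0.31) with single arrays left out; at MII between the ages, DYNC1H1 as the mean of its probe sets (0.27 on 12 arrays, 0.65 on 9); and in prepubertal maturation on 9 arrays, DYNC1H1 as that mean (0.62) and DYNC2I2 after median centring (0.011). The cause of these reversals was not tested. Changes of direction between the 9 and the 12 arrays are not counted here. Among the named results for maturation, TUBB2B and DYNLL1 in adults and KIF18A in prepubertal donors changed direction between the 2 sets. Members outside these results did so too, and they were not counted. Among them in adults were KIF3C, TUBA1A, DYNC1I2 and STMN1, which read 6.28, 5.54, 6.78 and 8.18 in adult GV pool 1.

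The count of members past the threshold on 9 arrays was 1 in place of 0 in adults after quantile normalisation, with no filter, with a pseudocount of 32, with the replicate block and without adult MII pool 3 (0 to 1 over left-out arrays), and in prepubertal donors with the compared groups only (1). For both ages together it was 0 in place of 1 after median centring and with no intensity trend, and 0 to 1 over left-out arrays.

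The median change of the members moved on 12 arrays to 0.71 (quantile) and 0.95 (centring) in adults and to 0.60 (centring) in prepubertal donors. On 9 arrays median centring gave 0.81 for prepubertal maturation, -0.39 and 0.52 for age at GV and MII, and 0.78 for the difference of the changes. Leaving out single arrays gave -0.12 to 0.63 (adults), -0.57 to 0.17 (prepubertal), -0.55 to 0.15 (age at MII) and -0.81 to -0.081 (difference of the changes) on 12 arrays, and -0.20 to 0.49 for that difference on 9.

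For maturation in prepubertal donors, same-numbered pools were also fitted as if paired, although the labels used here state no pairing. The replicate block with the compared groups only left 0 members past the threshold on 12 arrays. It gave 9 (16.1%) with an unadjusted p under 0.05, where 10.1% of all probe sets had one. The same groups fitted without the block gave 2 (3.57%), beside 3.77% of all probe sets. The block changed no other call beyond the adult count above. The mean of probe sets and the compared groups only were not run for both ages together. Few arrays and low signal limit what could be seen for members below 12 log2 units.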
